A study of Homo sapiens with 7 samples.

Results

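FOXA1 binding sites were compared between 22Rv1 cells carrying a short hairpin against SETD7 (shSETD7) and 22Rv1 cells carrying a control hairpin (shCTL in the sample labels, shNTC in the series description). 22Rv1, written CWR22-Rv1 in the labels, is an established human prostate cancer line, and both hairpins were stably expressed. The comparison uses 2 of the 7 peak lists of the series, one from each FOXA1 chromatin immunoprecipitation library, restricted to chromosomes 1 to 22 and X on build hg19. They hold 83633 shCTL peaks and 63682 shSETD7 peaks, together 147315 of the 464730 peaks in all 7 lists. Kept peaks share 1 bp or more with the other list. An shCTL peak was lost, and an shSETD7 peak gained, when the other list had no peak within 1 kb; the few peaks in between are called near. The words lost and gained therefore describe presence in a list of called peaks, not a measured change in occupancy. The number of hairpins per target and whether the cells were pools or clones are details that the sources used here do not give. How far the hairpin lowered SETD7 was not analysed here, and the knockdown is taken from the label. Each condition is 1 library, so differences between the conditions have no replicate check and none was tested; 95% Wilson intervals for shares, and order-statistic intervals for medians, cover counting error only.

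FOXA1 is a forkhead pioneer transcription factor that can bind DNA in closed chromatin and open it for other factors. In prostate luminal cells and prostate cancer it binds mainly at enhancers, where it guides the androgen receptor to its sites. SETD7 is a lysine methyltransferase that adds a single methyl group to histone H3 lysine 4 and to many non-histone proteins, and the title of the series names FOXA1 as a substrate. The comparison asks which FOXA1 sites are called when SETD7 is depleted.

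The lists differed in length and in width before any comparison. The median peak was 340 bp wide in the shCTL list and 357 bp in the shSETD7 list, and the narrowest peaks were 219 and 235 bp. The lists covered 31.9 Mb and 25.6 Mb, of which 12.8 Mb was shared, or 40.1% of the shCTL bases and 49.9% of the shSETD7 bases. Each peak has a score assigned by the authors' peak caller, with the same lowest value of 13 in both lists and medians of 136 and 82. Scores were used only to rank peaks within a list. Read depth is unknown. As a background, both lists were also set against the FOXA1 list of 22Rv1 cells labelled vehicle, with 65093 peaks and a median width of 262 bp. Its peak names all hold siNTC, a tag absent from the labels. It is therefore used as a second 22Rv1 list with no SETD7 hairpin in its label, and not as a matched control.

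More than 1 in 2 shCTL peaks had no counterpart in the shSETD7 list. Of the shCTL peaks, 43166 were lost, or 51.6% (51.3 to 52.0), 37250 were kept, or 44.5% (44.2 to 44.9), and 3217 were near, or 3.85%. Under the same rule 45.5% of the shCTL peaks (45.2 to 45.8) had no vehicle peak, a background not far below the lost share. Of the shSETD7 peaks, 24077 were gained, or 37.8% (37.4 to 38.2), 37061 were kept, or 58.2%, and 2544 were near. The share of shSETD7 peaks with no vehicle peak within 1 kb was 52.0% (51.6 to 52.4). With the 63682 highest-scoring shCTL peaks in place of all of them, 45.0% were lost and 45.2% gained. Lists of equal length whose overlapping peaks mostly pair singly give nearly equal shares by construction. The near equality therefore does not show why the lost and gained shares of the full lists differ. These comparisons share lists, and the vehicle values are given beside the knockdown values as a background, not as independent results. shCTL peaks on either side of the 1 kb limit were alike: the 1612 shCTL peaks 500 to 1000 bp from an shSETD7 peak and the 2463 peaks 1 to 2 kb away had the same median score percentile, 41.6, and median widths of 311 and 305 bp. For shSETD7 peaks, the 1247 just inside and the 1694 just outside the limit had median percentiles of 32.0 and 30.7 and widths of 311 and 307 bp, and 9.22% and 12.1% of them were vehicle peaks.

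Lost peaks reached further up the ranks of their list than gained peaks did. Of the lost peaks, 35.4% (35.0 to 35.9) were in the higher-scoring 50% of the shCTL list, against 67.9% of the kept peaks. Of the gained peaks, 16.7% (16.3 to 17.2) were in the higher-scoring 50% of the shSETD7 list, against 72.9% of the kept peaks there. In the lowest score decile of the shCTL list 75.1% were lost (74.1 to 76.0), in the fifth decile 56.6%, and in the highest decile 19.5% (18.7 to 20.4). Absence from the vehicle list went from 81.2% in the lowest decile through 52.5% in the fifth to 3.62% (3.24 to 4.05) in the highest. The lost share was thus below the vehicle background in the lowest decile and 16.7 percentage points above it in the ninth, at 30.8% against 14.2%. For shSETD7 peaks the gained share went from 80.5% in the lowest decile to 0.848% (0.651 to 1.11) in the highest. It was below the share without a vehicle peak in each of the 10 deciles. The lists searched for a partner differ in size, with 83633 shCTL peaks over 31.9 Mb and 65093 vehicle peaks over 18.5 Mb. The part of list size in these shares was not tested.

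**Figure D1:**
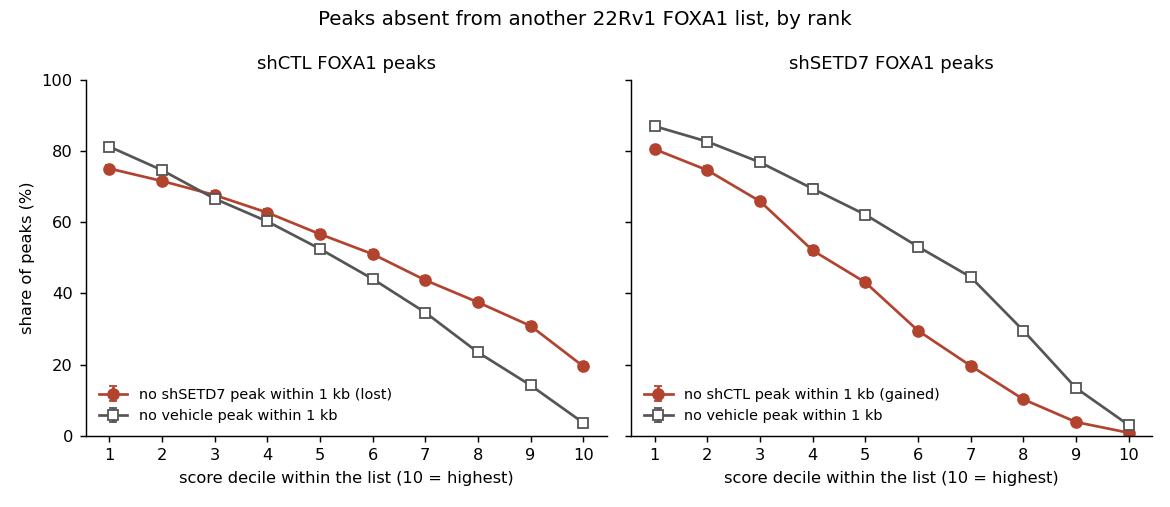
Share of shCTL peaks (left) and shSETD7 peaks (right) with no peak of another 22Rv1 FOXA1 list within 1 kb, in percent, by score decile within the list; bars are 95% Wilson intervals, mostly smaller than the symbols. For shCTL peaks the shSETD7 and vehicle curves cross between the second and the third decile and end at 19.5% and 3.62%. For shSETD7 peaks the shCTL curve lies below the vehicle curve throughout, and the shCTL list is longer than the vehicle list.

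The difference from the background was present at the very top of the shCTL list. Among the 100 highest-scoring shCTL peaks 3 were lost, among the top 500 there were 32, or 6.40% (4.57 to 8.90), and among the top 1000 there were 90, or 9.0% (7.38 to 10.9). The vehicle list lacked 0, 2 and 4 of the same peaks; the Wilson upper bound for 0 of 100 is 3.70%, and 4 of 1000 is 0.400% (0.156 to 1.02). In the other direction, 0 of the 500 highest-scoring shSETD7 peaks were gained, with an upper bound of 0.762%, and 1 of the top 1000 was, or 0.1% (0.0177 to 0.564). Nearly all strong sites of the shSETD7 list were therefore sites of the shCTL list, while 90 of the strongest 1000 shCTL sites had no shSETD7 peak within 1 kb. The partner lists differ in length, 83633 peaks for the first direction and 63682 for the second, and these counts were not repeated at equal length.

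The 10 lost peaks with the highest scores were 505 to 656 bp wide and scored between 7330 and 14511. They lay at chr1:248618252-248618812, chr1:248799846-248800424, chr1:224504961-224505530, chr1:148846783-148847310, chr4:102177329-102177984, chr4:176011177-176011681, chr21:28698551-28699088, chr12:59762067-59762653, chr7:131048339-131048901 and chr12:84199613-84200121. All 10 were peaks of the vehicle list, where 9 of them ranked at percentile 93.0 or above; the exception was chr12:59762067-59762653, at percentile 26.7. In LNCaP, another prostate cancer line, 9 were FOXA1 peaks after DMSO, and the exception was chr1:148846783-148847310. None overlapped a SETD7 peak of vehicle 22Rv1 cells. Of all lost peaks in the highest decile, 90.5% were vehicle peaks, 84.6% were LNCaP DMSO peaks and 0.368% overlapped a SETD7 peak. The site on chromosome 1 at 148846783 was also the one closest to an shSETD7 peak, 1.76 kb away, while the site at chr4:176011177-176011681 was 69.7 kb from the nearest. These were sites called with high rank in both 22Rv1 lists without the SETD7 hairpin, apart from the one of low vehicle rank, and not called after knockdown. A gene annotation on hg19 was not used here, so no site is assigned to a gene.

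The 10 highest gained peaks were weaker in rank and less alike. Their scores were 1009 to 3756, all at percentile 94.1 or above of the shSETD7 list, and their widths 238 to 720 bp. The first 4 were at chr2:116139520-116139769, chr4:82394988-82395455, chr20:56348150-56348869 and chr14:86778941-86779185, and all 4 were also peaks of vehicle cells. Of the 10, 6 were in the vehicle list, 5 in the LNCaP DMSO list and 1, at chr5:102374881-102375139, overlapped a SETD7 peak. Among all 54 gained peaks of the highest decile the same shares were 68.5%, 42.6% and 7.41%. The peaks at chr20:47724740-47724977 and chr8:134779250-134779760 were in the shSETD7 list only, among all 7 lists. At chr4:82394988-82395455, chr14:86778941-86779185 and chr13:23149193-23149539 an shCTL peak lay 1.49, 1.68 and 1.67 kb away, just outside the 1 kb limit.

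Width differed between the classes, and its direction in the shCTL list depended on rank. Over all ranks, lost peaks had a median width of 308 bp (307 to 309) and kept peaks 382 bp (380 to 383), a ratio of 0.806. Width goes with score, so peaks were compared within score deciles. In the lowest decile lost peaks were the narrower ones, at 262 bp (260 to 264) against 299 bp (293 to 304). In the sixth decile the medians were 326 and 324 bp. In the highest decile lost peaks were the wider ones, at 512 bp (507 to 519) against 481 bp (478 to 483). Split by the vehicle list instead, absent and present peaks had a similar crossover of smaller size: 267 and 272 bp in the lowest decile, 328 and 323 bp in the sixth, 397 bp (392 to 403) and 384 bp (381 to 386) in the eighth, 436 and 424 bp in the ninth, and 488 and 487 bp in the highest. The ratio of lost to kept width in the eighth and ninth deciles was 1.07, against 1.04 and 1.03 for the vehicle split. When the highest decile was divided by width into 4 groups of nearly equal size, 13.5% (12.1 to 15.1) of the narrowest group, 228 to 438 bp wide, were lost, and 23.9% (22.1 to 25.8) of the widest, 569 bp or more. The widest group also had the higher median score percentile of the pair, 95.5 against 93.1. Absence from the vehicle list was 3.84% and 3.62% in the same groups. In the ninth decile the narrowest and widest groups had lost shares of 21.3% and 37.3%, against 12.6% and 15.3% for vehicle. In the lowest decile the order was the opposite, with 81.5% of the narrowest and 64.5% of the widest group lost, against 82.6% and 78.7% absent from the vehicle list.

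Gained peaks had lower median widths than kept peaks in every score decile of the shSETD7 list. Their median widths were 305 bp (303 to 306) and 401 bp (399 to 403), a ratio of 0.761. Within deciles the ratio lay between 0.869 in the ninth and 0.986 in the lowest decile. In the lowest decile the medians were 291 and 295 bp, and in the second 298 and 304 bp, with overlapping intervals in both. A crossover with rank like that of the shCTL list was not seen in the shSETD7 list.

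**Figure D2:**
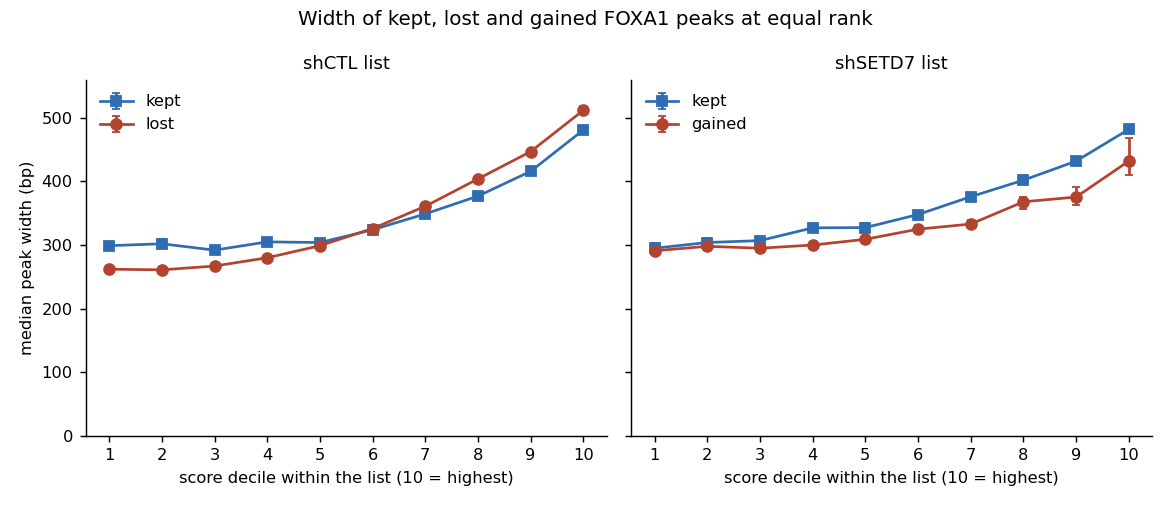
Median peak width in bp by score decile for kept and lost peaks of the shCTL list (left) and kept and gained peaks of the shSETD7 list (right), with order-statistic 95% intervals. In the shCTL list lost peaks go from 262 to 512 bp and cross the kept peaks (299 to 481 bp) at the sixth decile, while gained peaks stay below kept peaks.

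Kept peaks were mostly the same intervals in both lists. Of 37352 overlapping pairs, 36570 were one to one, 102 shCTL peaks met more than one shSETD7 peak and 290 shSETD7 peaks met more than one shCTL peak. In the one-to-one pairs the midpoints were a median of 42 bp apart, and 6.66% were more than 200 bp apart. The shSETD7 peak was the wider of the pair in 57.8%, with a median ratio of 1.05 (quartiles 0.871 and 1.26), the direction in which the narrowest peaks of the lists also differ. Ranks were related but scattered. Spearman's rho was 0.63 across these pairs, and also 0.63 across one-to-one pairs of shCTL and vehicle peaks. Both values are descriptions, since pairs share libraries and are not replicates. Of the pairs, 14.1% were more than 20 percentiles lower in the shSETD7 list and 20.3% more than 20 percentiles higher.

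The strongest sites of the 2 lists differed in how well they held their rank in each other's list, but little in the vehicle list. Of the one-to-one pairs in the highest shCTL decile, 4002 of 6469 were in the highest shSETD7 decile and 55 in the lowest. In that decile 18.9% (18.0 to 19.9) were more than 20 percentiles lower in the shSETD7 list, and against vehicle peaks the share was 15.8% (15.0 to 16.6). The median difference there was smaller for shSETD7, at -1.29 percentiles, than for vehicle, at -2.99. In the ninth decile the order of the shares was the opposite, with 22.6% (21.5 to 23.7) for shSETD7 and 30.7% (29.6 to 31.8) for vehicle, and over all pairs they were 14.1% and 23.9%. Of the pairs in the highest shSETD7 decile, 3.26% (2.85 to 3.73) were more than 20 percentiles lower in the shCTL list, and against vehicle 16.7% (15.8 to 17.7). Percentiles depend on list length, which was 83633 peaks for shCTL, 63682 for shSETD7 and 65093 for vehicle. The part of list length in these shares was not tested. Together with the lost peaks, the highest shCTL decile thus held sites that were absent, sites that were present at a much lower rank, and a majority that remained at high rank. The largest drop was at chr21:14997408-14997869, which was at percentile 98.7 of the shCTL list and at 0.795, among the lowest scores, of the shSETD7 list. The next were chr2:79083199-79084477 and chr12:72672655-72673138, both at percentile 96.8 and then at 0.795. All 5 kept sites with the largest drops were peaks of the vehicle list and none overlapped a SETD7 peak. These counts are near the shares among all kept peaks of the highest shCTL decile, 97.5% and 3.57%. The largest gains in rank were at chr5:99192119-99192594, from percentile 2.75 to 87.0, and chr7:65057379-65057731, from 10.7 to 91.2, and both overlapped a SETD7 peak. The other 3 of the 5 largest, at chr13:97145132-97145381, chr2:34234206-34234461 and chr17:70395807-70396108, did not. Among all kept shCTL peaks, 6.51% of the lowest decile and 4.91% of the second overlapped a SETD7 peak.

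**Figure D3:**
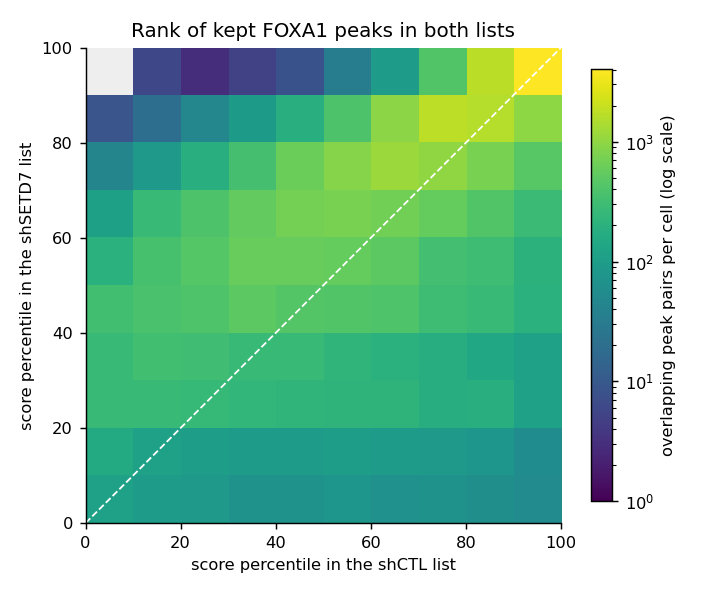
One-to-one overlapping FOXA1 peaks by score percentile in the shCTL list (x axis) and the shSETD7 list (y axis), in cells of 10 by 10 percentiles coloured by the number of pairs on a log scale; the dashed line marks equal rank. The cell of the highest deciles of both lists holds 4002 pairs, and pairs of high shCTL rank reach down to the lowest shSETD7 ranks, whereas the cell of lowest shCTL and highest shSETD7 decile (grey) is empty.

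The 5 kept sites with the highest shCTL scores were of different kinds. chr1:121484108-121485426, chr10:42599361-42600414 and chr7:61968675-61969798 were 1054 to 1319 bp wide and were peaks in all 7 lists, including the SETD7 list. They lay at or near the widest stretch of their chromosome without a peak of any list. Those stretches were chr1:121485513-142535712, chr10:39153340-42355471 and chr7:58021836-61054643. Artefact-prone regions were not removed, and whether these sites are FOXA1 or SETD7 binding was not tested. chr1:205672119-205672654 and chr17:5135425-5135958 were 536 and 534 bp wide and were found in the 6 FOXA1 lists and not in the SETD7 list. In all, 361 shCTL peaks and 388 shSETD7 peaks overlapped a peak of every other list.

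Spacing differed between lost and kept peaks by rank, and the vehicle split had a similar pattern up to the ninth decile. The nearest other shCTL peak was a median of 9.53 kb away for lost peaks (9.40 to 9.67) and 9.97 kb for kept peaks (9.84 to 10.1), a ratio of 0.956. Within deciles the ratio went from 1.09 in the lowest to 0.888 in the eighth and 0.814 in the ninth, where lost peaks had a neighbour at 8.79 kb (8.29 to 9.37) and kept peaks at 10.8 kb (10.5 to 11.2). In the highest decile it was 0.967, with overlapping intervals. For shCTL peaks absent from and present in the vehicle list the ratios were 1.02 in the lowest, 0.899 in the eighth, 0.834 in the ninth and 0.874 in the highest decile. With a limit of 5 kb in place of 1 kb the ratio over all ranks was 1.10, so its direction depended on the limit, which by construction keeps close neighbours of shSETD7 peaks out of the lost class. In the shSETD7 list the distances were 13.6 kb for gained and 13.2 kb for kept peaks in the median, a ratio of 1.04. The nearest shSETD7 peak was a median of 14.4 kb from a lost peak, and 13.9 kb (12.8 to 15.3) from a lost peak of the highest decile. Only 3.76% of the lost peaks were more than 100 kb from any shSETD7 peak.

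The lost share was similar for single peaks and small groups of neighbouring peaks, and lower in the largest groups. shCTL peaks were joined into chains where gaps were at most 10 kb. Of the 40180 peaks that stood alone, 52.0% were lost (51.5 to 52.5), and of the 22648 peaks in chains of 2, 51.4%. In the 36 chains of 10 or more peaks, which hold 491 peaks, 36.0% were lost (31.9 to 40.4), and 33.0% (29.0 to 37.3) were absent from the vehicle list. These chains held stronger peaks, with a median percentile of 62.2, and weighted to the ranks of the whole list their lost share was 40.8%. Every one of those 36 chains had at least 1 kept peak, and of the 840 chains of 5 to 9 peaks 91.5% had one and 7.38% were lost whole. Where 44.5% of all shCTL peaks are kept, a long chain holds a kept peak almost by necessity. These counts therefore do not show how loss was arranged within chains, and no vehicle value for whole chains is given here. Peaks followed their neighbours weakly beyond the reach of the 1 kb rule. For neighbours 5 to 10 kb apart, a peak was lost in 55.7% of cases after a lost peak (54.5 to 56.8) and in 49.4% after one that was not lost (48.2 to 50.6). At 50 to 100 kb the shares were 55.3% and 48.8%, so the difference was 6.27 points at the shorter and 6.49 points at the longer distance. Against vehicle the corresponding shares were 47.3% and 45.0% at 5 to 10 kb and 46.8% and 44.7% at 50 to 100 kb.

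The lost share differed between chromosomes. By chromosome, the lost share was lowest on chromosomes 19, 16 and 22, at 32.8% (30.6 to 35.0), 41.2% (39.0 to 43.5) and 42.8% (39.7 to 45.9), and highest on chromosomes 13, 4 and 21, at 60.1% (58.2 to 61.9), 58.4% (57.0 to 59.7) and 55.9% (52.8 to 58.9). The standard deviation over the 23 chromosomes was 6.32 points, against 2.29 points for absence from the vehicle list. The vehicle background ordered the extremes differently, with 52.0% absent on chromosome 19 and 45.4% on chromosome 13. Chromosome 19 was therefore below its vehicle background and chromosome 13 was 14.7 points above it, and 17 of the 23 chromosomes were above theirs. The number of shSETD7 peaks per shCTL peak moved with the lost share at these extremes, at 0.910 on chromosome 19, 0.614 on chromosome 13 and 0.602 on chromosome 4, but not throughout, with 0.893 on chromosome 3, where 51.6% were lost. Gained shares were highest on chromosomes 3, 8, 7 and 1, at 46.8%, 42.6%, 42.0% and 41.9%, and lowest on chromosome 19, at 27.2%. The shares of shSETD7 peaks with no vehicle peak within 1 kb were 55.2%, 54.4%, 54.5% and 56.7% on chromosomes 3, 8, 7 and 1. They were 54.7% on chromosome 19 and 52.0% over all chromosomes. As background, chromosome 19 is known as the most gene-dense human chromosome and chromosomes 13 and 4 as gene-poor ones; gene density, base composition and DNA copy number were not analysed here, and their part in these shares was not tested.

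The extremes were similar at equal rank. Chromosome 19 peaks had a median shCTL score percentile of 46.2 and chromosome 13 peaks of 51.1. Weighted to the same deciles, the lost shares were 30.9% and 60.5%. In the highest decile, 4 of 157 peaks on chromosome 19 were lost, or 2.55% (0.995 to 6.37), 12 of 166 on chromosome 16, or 7.23% (4.18 to 12.2), 141 of 533 on chromosome 4, or 26.5% (22.9 to 30.4), and 64 of 263 on chromosome 13, or 24.3% (19.5 to 29.9). Within each of the 10 deciles the lost share was lower on chromosomes 19, 16 and 22 than on chromosomes 21, 4 and 13; in the sixth decile the values were 31.9% and 59.7%, where absence from the vehicle list was 43.5% and 47.6%. The chromosomes were picked by their loss over all ranks, so the values by decile describe that choice and do not test it.

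**Figure D4:**
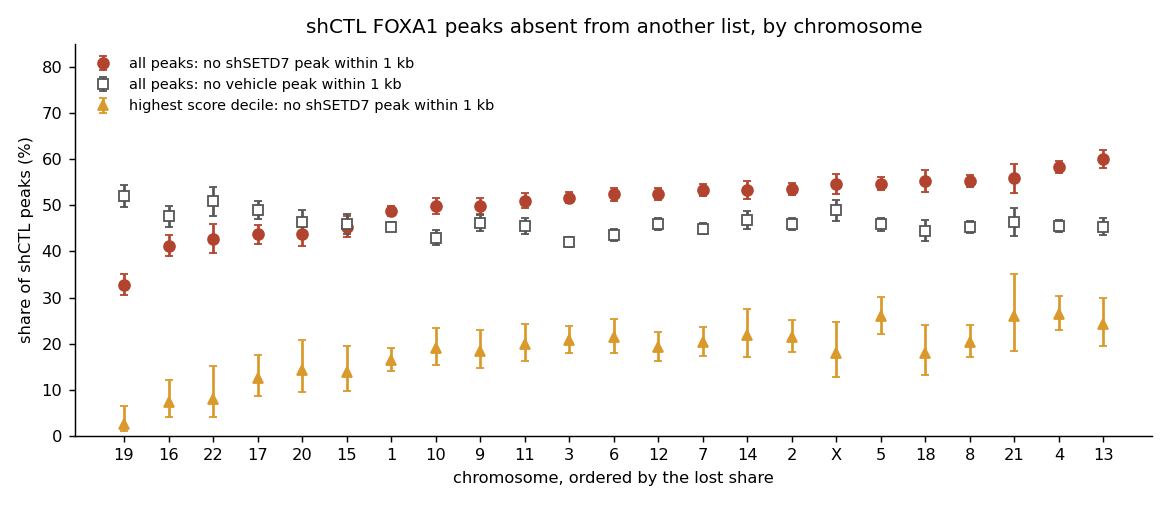
Share of shCTL FOXA1 peaks with no shSETD7 peak within 1 kb (filled circles), with no vehicle peak within 1 kb (open squares), and the first share in the highest score decile (triangles), in percent by chromosome, ordered by the lost share; bars are 95% Wilson intervals. The lost share spans 32.8% on chromosome 19 to 60.1% on chromosome 13, the vehicle background spans 42.0 to 52.0%, and the triangles span 2.55 to 26.5%.

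With all chromosomes pooled, loss was also lower near their ends, taken as the outermost peaks of any list. Within 2 Mb of an end 43.7% of shCTL peaks were lost (41.9 to 45.6), at 10 to 20 Mb 49.7% (48.9 to 50.6) and beyond 40 Mb 53.8% (53.3 to 54.3). Absence from the vehicle list had the opposite order, with 49.5% (47.6 to 51.4), 45.5% and 44.8% (44.3 to 45.3). The gained share had no such order, with 36.4%, 36.0% and 38.9%. Short chromosomes such as 19, 21 and 22 hold no peak beyond 40 Mb from an end, so the distance groups hold different chromosomes. The shares were not compared within chromosomes. Chromosomes were further divided at the widest stretch without a peak of any list. On chromosome 6 the lost share was 46.0% before chr6:58779732-61898473 (43.8 to 48.2) and 56.7% after it (54.9 to 58.4), with 44.7% and 42.9% for vehicle. On chromosome 3 it was 44.8% before chr3:90503400-93511491 and 55.4% after it, with 37.6% and 44.5% for vehicle, so there the background had the same order. On chromosome 21 it was 45.2% of the 124 peaks before chr21:11186914-14339128 and 57.4% of the 884 after it, with 38.7% and 47.4% for vehicle. Gained shares differed most on chromosomes 8 and 1, at 29.6% (26.5 to 32.9) before and 45.7% (44.0 to 47.5) after the stretch on chromosome 8, and 31.3% (29.6 to 33.2) before and 47.0% (45.6 to 48.3) after that on chromosome 1.

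At a finer scale, 564 windows of 5 Mb held at least 50 shCTL peaks. Their lost shares ranged from 27.3% to 82.1% with a standard deviation of 11.04 points, against 6.42 points for absence from the vehicle list, counting error included in both. The highest share was at chr13:55000001-60000000, where 96 of 117 shCTL peaks were lost (82.1%, 74.1 to 88.0), and 67 were absent from the vehicle list. That window held 117 shCTL, 84 vehicle and 42 shSETD7 peaks. Next came chr21:20000001-25000000 with 113 of 139 lost, chr4:30000001-35000000 with 95 of 117, chr13:85000001-90000000 with 99 of 123 and chr6:60000001-65000000 with 76 of 96. In those 4 windows 62, 50, 49 and 41 of the same peaks had no vehicle peak within 1 kb. The lowest shares were in 3 windows of chromosome 19, 1 of chromosome 3 and 1 of chromosome 20. At chr19:1-5000000, 57 of 201 peaks were lost, or 28.4% (22.6 to 34.9), while 119 had no vehicle peak. At chr3:10000001-15000000, 29 of 106 were lost and 31 had no vehicle peak. The number of shCTL peaks in a window went with little difference: the lost share was 50.7% in the 188 windows with fewest and 51.8% in the 188 with most.

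Lost peaks also stood in runs with no other shCTL peak between them. Of the lost peaks, 20.5% had shCTL neighbours on both sides that were not lost, and 7.80% stood in 271 runs of 10 or more. Of the shCTL peaks absent from the vehicle list, 26.1% stood singly and 1.25% in 42 runs of 10 or more, the longest of 14 peaks; that list lacks fewer shCTL peaks, which by itself makes runs shorter. The longest run was 31 consecutive lost peaks at chr13:55655146-56874237, over 1.22 Mb and inside the window of highest loss; 14 of the 31 were in the higher-scoring 50% of the shCTL list and 11 were peaks of the vehicle list. The second was 25 lost peaks at chr7:18433476-18581064 over 0.148 Mb, a dense stretch in which 11 peaks were in the higher-scoring 50% and 5 were in the vehicle list. The third, 23 peaks at chr6:92001040-92656838, held 15 that were LNCaP DMSO peaks. Runs of gained peaks were shorter and weaker. The gained share, 37.8%, is below the lost share, 51.6%, which by itself makes runs shorter. Gained peaks also ranked lower as a class, at a median percentile of 25.3 against 37.4 for lost peaks. The longest was 16 peaks at chr8:55228401-55875213 with a median score percentile of 12.0, of which 1 was a vehicle peak and none an LNCaP DMSO peak.

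Lost and gained peaks differed in how often other FOXA1 lists held them. Lost peaks overlapped a vehicle peak in 38.5% of cases (38.0 to 39.0) and kept shCTL peaks in 66.8% (66.3 to 67.3). Much of that difference goes with rank. Kept peaks weighted to the ranks of the lost ones gave 46.3%. In the highest decile 90.5% of lost peaks (89.0 to 91.8) and 97.5% of kept peaks (97.0 to 97.8) were vehicle peaks. Gained peaks overlapped a vehicle peak in 12.2% of cases (11.8 to 12.6), against 46.7% for kept shSETD7 peaks at the same ranks. In the lowest decile of shSETD7 scores 3.21% of gained peaks (2.75 to 3.74) and 43.1% of kept peaks (39.6 to 46.5) were vehicle peaks. Weak gained peaks were thus rarely sites of the other 22Rv1 list, whereas weak kept peaks often were.

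Lost peaks were LNCaP sites about as often as kept peaks of equal rank. Lost peaks overlapped an LNCaP DMSO FOXA1 peak in 38.5% of cases and kept shCTL peaks in 53.5%, but at the ranks of the lost peaks the kept value was 36.2%. In the lowest decile 18.0% of lost and 14.0% of kept peaks (12.4 to 15.8) were LNCaP sites, and in the highest decile 84.6% of lost (82.8 to 86.3) and 87.7% of kept peaks (86.9 to 88.5). Among shCTL peaks of the fifth decile found in LNCaP, the LNCaP peak had a median score percentile of 56.4 for lost and 41.0 for kept peaks, and in the highest decile 88.1 and 88.7. In vehicle 22Rv1 cells the same medians were 45.0 and 44.5 in the fifth decile, and 86.6 and 92.8 in the highest. In each of the 9 deciles below the highest, lost peaks had the higher median rank in LNCaP, whereas from the sixth decile upward they had the lower median rank in the vehicle list. Gained peaks overlapped LNCaP DMSO peaks in 9.28% of cases, against 40.2% for kept shSETD7 peaks at equal rank.

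**Figure D5:**
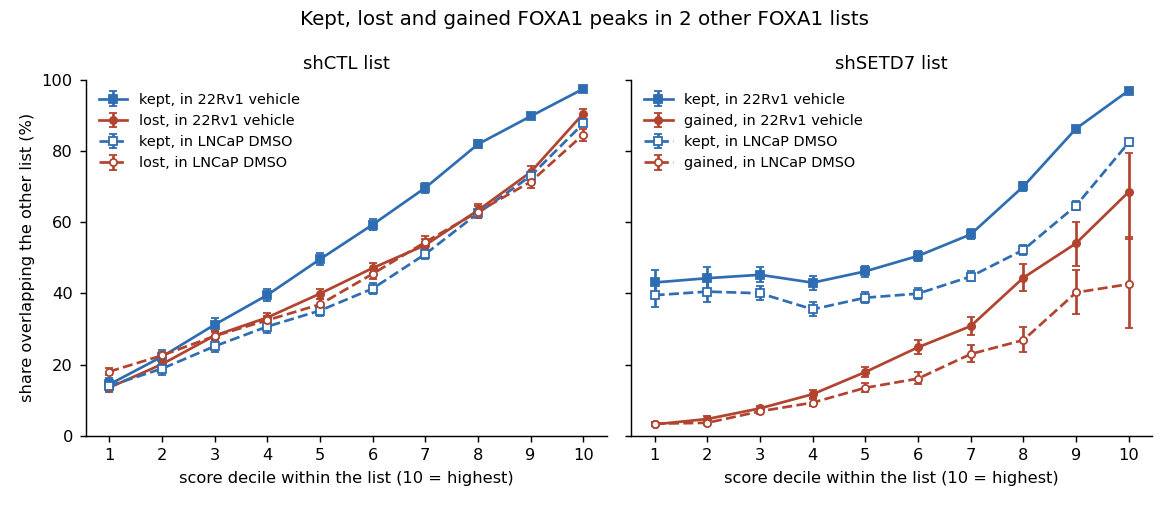
Share of peaks overlapping a vehicle 22Rv1 FOXA1 peak (solid lines) or an LNCaP DMSO FOXA1 peak (dashed lines), in percent by score decile, for kept and lost shCTL peaks (left) and kept and gained shSETD7 peaks (right); bars are 95% Wilson intervals. Lost and kept shCTL peaks lie within a few points of each other for LNCaP, whereas gained peaks lie far below kept shSETD7 peaks for both lists, at 3.21% against 43.1% for vehicle in the lowest decile.

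SETD7 peaks of vehicle 22Rv1 cells overlapped few peaks of any class. They met 490 of the 43166 lost peaks, or 1.14% (1.04 to 1.24), and 3.91% of the kept shCTL peaks (3.72 to 4.11). In the highest shCTL decile they met 6 of 1630 lost peaks, or 0.368% (0.169 to 0.801), and 234 of 6552 kept ones, or 3.57%. Among shSETD7 peaks they met 9.01% of gained (8.65 to 9.38) and 4.21% of kept peaks. At the ranks of the gained peaks the kept value was 3.80%. Peaks found in all 7 lists are kept and meet a SETD7 peak by definition, and they were not left out here. They made up 361 of the 1457 kept shCTL peaks and 388 of the 1559 kept shSETD7 peaks that met a SETD7 peak.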

How the data were processed

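Chromatin immunoprecipitation libraries were represented by 1 deposited peak list each, 1 library per group taken from the sample titles. The submitters' processing notes list MACS2 2.1.4, BWA 0.7.17-r1188, FastQC 0.11.9, SAMtools 1.9 and build hg19; the sources used here do not give thresholds or an input control, although the deposited peak names of both hairpin lists hold a folder name ending in 0.05. The score of each peak is the authors' own deposited value, with no definition given, and was used only for ranks within a list, ties sharing a mid-rank. Read depth is unknown and the number of called peaks depends on it. Distances are edge to edge, and starts are given 1-based. Artefact-prone regions were not removed. Python 3.11.15, numpy 2.4.6, pandas 2.3.3 and matplotlib 3.10.9 were used. The classes gave the same counts as bedtools 2.31.1. A simulated copy was made of 66486 shCTL peaks, chosen to have no close shCTL neighbour. All 31218 removed peaks were returned as lost, which that choice ensures, so this checks the code only.

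Named sites are the 10 highest-scoring lost and gained peaks, the 5 highest kept pairs and largest rank differences each way, the 5 longest runs, and the extreme chromosomes and windows, given in part. No hg19 annotation or sequence was used. The classes, measures and rules were chosen with earlier results of these data known. Alternatives were a 5 kb limit, only the upper 50% of scores in each list, lists cut to equal size, lists without peaks found in all 7, and reciprocal 50% overlap; leaving out chromosome 19 was added after the data were examined.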

Additional observations from a re-analysis of the deposited data

How the results depend on the processing

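Of 46 alternatives run over 10 results, 16 stayed inside the counting interval of the reported value, 24 moved beyond it, 1 reversed, and 5 concern the standard deviation over chromosomes, which has no interval. The reversal was the spacing ratio of lost to kept shCTL peaks, 0.956 as reported and 1.10 with a 5 kb limit. With that limit 42.1% of shCTL peaks were lost and 29.3% of shSETD7 peaks gained, 34.6% and 15.5% of them in the higher-scoring 50% of their list, the gained spacing ratio was 1.18, the standard deviation of loss over chromosomes 6.09 points, and 37.7% of lost peaks were vehicle peaks. For the higher-scoring 50% of each list, ranked anew, the lost and gained shares were 47.8% and 31.5%. Of these peaks 38.1% and 14.2% were in the upper ranks of the shortened lists, not of the full lists. Width ratios were 0.959 and 0.839, spacing ratios 0.916 and 1.07, and the chromosome deviation 9.02 points. Of the lost peaks 42.0% were in the vehicle list, which was shortened in the same way. With equal-sized lists the lost share was 45.0% and the gained share 45.2%, a near equality that equal lengths give by construction. With these lists, ranked anew, 35.9% of lost and 19.03% of gained peaks were in the upper ranks, and the width ratios were 0.864 and 0.768. The chromosome deviation was 7.26 points, and 48.7% of lost peaks were vehicle peaks. Without peaks found in all 7 lists the chromosome deviation was 6.35 points, and without chromosome 19 it was 5.13. Reciprocal 50% overlap gave a spacing ratio of 0.927 for lost peaks and 32.9% of lost peaks in the vehicle list. A wider limit lowers lost and gained shares by its construction; for all other differences the cause was not tested. No paired analysis was possible because each group is 1 library. Depth, unknown here, limits every lost and gained share.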

Other observations

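LNCaP cells were also treated with the LSD1 inhibitor GSK2879552 (LSD1 is a lysine demethylase). Weighted over all ranks, the LNCaP lists held lost and kept peaks of 22Rv1 in proportions within a few points of each other. Of the lost shCTL peaks, 38.5% overlapped an LNCaP FOXA1 peak with DMSO, 32.1% with GSK2879552 and 39.7% with GSK2879552 and PFI-2, an inhibitor of SETD7. Of the kept shCTL peaks the shares were 53.5%, 51.6% and 54.5%. Weighted to the ranks of the lost peaks, the kept shares were 36.2%, 33.2% and 37.1%. In the highest shCTL decile the lost peaks gave 84.6%, 80.4% and 84.6%, and the kept peaks 87.7%, 87.5% and 88.3%. With GSK2879552 the ninth decile gave 64.5% of lost and 72.9% of kept peaks, a wider gap than over all ranks. The GSK2879552 list is the shortest of the 3, with 63866 peaks against 79741 and 83352, and the part of list length in these values was not tested. Each LNCaP condition is 1 library after 4 hours of treatment.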
